A study of Mus musculus with 6 samples.

Results

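The enzymes that write and remove DNA methylation were described in OS3 mouse glial cells with and without the H3.3K27M mutation. The set was fixed by name as *Dnmt1*, *Dnmt3a*, *Dnmt3b*, *Dnmt3l*, *Uhrf1*, *Tet1*, *Tet2*, *Tet3* and *Tdg*. These 9 genes belong to 22907 genes with a named probe on the array, and all 9 were among the 14894 genes tested. OS3 cells are a male glial line from brain of C3H mice (newborn C3H/HeN, per the methods) that was immortalized with SV40 and has properties of a bipotential glial progenitor. WT cells carried the empty plasmid vector, and IG27 cells carried a plasmid for histone H3.3 with the lysine-to-methionine K27M substitution. Both groups thus share the SV40 immortalization, the transfection and the drug selection, and were grown for 2 days in MEM-α with serum, insulin and added glucose. Total RNA from 3 dishes of each group was measured on single-colour mouse expression arrays. IG27 is a drug-selected line, and no independently derived IG27 lines were compared, so the *P* values measure the spread between dishes. DNA methylation itself was not measured.

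DNA methylation in mammals is the addition of a methyl group to cytosine, mostly where a guanine follows (CpG). Dnmt3a and Dnmt3b place new methyl groups, Dnmt3l is a partner of both that has no catalytic activity of its own, and Dnmt1 copies the pattern onto the new strand after DNA replication, guided by Uhrf1. The TET enzymes oxidize methylcytosine using α-ketoglutarate, and Tdg excises the later oxidation products so that base excision repair can restore cytosine. Dnmt3l is known mainly from germ cells and pluripotent cells, and H3K27M-mutant gliomas are known for altered DNA methylation besides their loss of H3K27 trimethylation.

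The arrays of each group resembled each other closely. Pearson's r over the probes used for the 14894 tested genes was 0.994 to 0.997 within the groups and 0.902 to 0.905 between them. Probes not well above background in either group were left out of it. Between 58.8 and 61.2% of probes were well above background on the 5 arrays whose scanner files are complete, with no saturated probe. The array of IG27 replicate 2 has a truncated scanner file, so its values come from the authors' value table. At an adjusted *P* under 0.05, 10498 of 14894 genes (70.5%) were called in either direction, and the median difference of all genes was -0.07 on the log2 scale. This large background share applies to every count given here. The 3 probes of *H3f3a*, the mouse gene for H3.3, differed by 0.17, -0.26 and -0.20. Whether they read the introduced transcript besides the endogenous one was not worked out, so they are no check of the labels.

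The labelled glial identity was compared with marker genes. All 16 glial markers were tested, including *Gfap*, *Sox10*, *Vim* and *Nes*, which were well above background in both groups. Of the 16, 7 were higher and 6 lower in IG27, and the list summed to 342 to 358 in WT and 278 to 292 in IG27 on the linear scale of each array's 75th percentile. Such a sum is led by the brightest probes of a list and does not describe its other genes. Here these were *Vim* (log2 means of 7.11 in WT and 6.96 in IG27) and *Gfap* (6.64 and 5.57). Among these markers, *S100b*, *Pdgfra* and *Olig2* were the 3 with the highest differences among called genes measured in both groups (4.93, 2.36 and 1.51), and *Aldh1l1*, *Gfap* and *Slc1a2* the 3 with the lowest (-1.72, -1.07 and -1.03), although a second *Gfap* probe gave 0.19. *Fabp7* and *Slc1a3* were also called higher and were above background only in IG27. Of 8 neuron markers 3 were tested and *Rbfox3*, *Syt1*, *Nefl*, *Slc17a6* and *Gad1* were not well above background in either group. *Tubb3* (-2.63) and *Nefm* (-0.63) were lower in IG27, and the list summed to 20.3 to 22.6 in WT and 8.43 to 9.26 in IG27. Of 8 microglia and blood cell markers, 6 were tested and 4 were higher in IG27, of which *P2ry12* (0.49), *Cd68* (0.31) and *Itgam* (0.20) were measured in both groups, while *Csf1r* (-1.57) and *Tmem119* (-0.76) were lower. Their sum was 15.3 to 16.3 in WT and 14.9 to 15.3 in IG27, and *Ptprc* and *Cx3cr1* were not above background. Of 7 endothelial markers, *Kdr* and *Flt1* were above background only in IG27 and *Pecam1* was lower (-0.27; not called without any 1 of WT replicates 1 and 2 and IG27 replicates 1 and 2, nor with the detected-probe percentile, the slide row or no filter on dim probes), with *Cdh5*, *Cldn5*, *Tek* and *Emcn* not above background in either group. The endothelial sum was 0.173 to 0.187 in WT and 3.33 to 3.34 in IG27. Of 8 fibroblast and mural markers, 5 were tested. Of these, *Col3a1* (1.57) was higher, as was *Dcn*, which was above background only in IG27, and *Pdgfrb* (-1.16), *Col1a1* (-0.92) and *Acta2* (-0.51, with 0.34 and 1.12 by its other probes) were lower, with sums of 173 to 177 in WT and 150 to 158 in IG27. The part of any other cell type in the values of the methylation genes was not tested.

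The regions around the transcription start sites of the members are shown first, since CpG is the main site of DNA methylation and the members differ in their CpG counts. The sequences are those of RefSeq on GRCm38.p6 and span 250 bases before to 50 bases after each start. All 9 members matched, with 16 starts in all. The median window of 32851 mouse starts holds 7 CpG (quartiles 3 and 20). The following 3 windows, with each CpG in capitals, span the range of this count, from the member with the fewest CpG at its best start to the one with the most, and belong to 3 members that were higher in IG27. They lie at chr10:78042037-78042336 (+ strand, start 1 of 3) for *Dnmt3l*, chr10:62887275-62887574 (− strand) for *Tet1* and chr3:133544341-133544640 (− strand) for *Tet2*, and read 5′ to 3′ on the strand of the gene.
Dnmt3l: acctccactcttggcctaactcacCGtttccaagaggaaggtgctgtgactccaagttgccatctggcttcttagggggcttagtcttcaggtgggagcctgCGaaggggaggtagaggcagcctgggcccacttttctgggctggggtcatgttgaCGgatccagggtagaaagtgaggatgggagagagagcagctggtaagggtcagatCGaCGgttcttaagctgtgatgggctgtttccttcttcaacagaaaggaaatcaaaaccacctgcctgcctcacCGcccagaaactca
Tet1: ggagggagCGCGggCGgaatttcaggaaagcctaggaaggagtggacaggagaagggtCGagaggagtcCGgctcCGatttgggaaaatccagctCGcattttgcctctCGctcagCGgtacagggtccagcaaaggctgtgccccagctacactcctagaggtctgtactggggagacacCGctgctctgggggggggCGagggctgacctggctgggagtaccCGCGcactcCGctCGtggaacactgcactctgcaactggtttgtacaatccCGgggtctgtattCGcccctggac
Tet2: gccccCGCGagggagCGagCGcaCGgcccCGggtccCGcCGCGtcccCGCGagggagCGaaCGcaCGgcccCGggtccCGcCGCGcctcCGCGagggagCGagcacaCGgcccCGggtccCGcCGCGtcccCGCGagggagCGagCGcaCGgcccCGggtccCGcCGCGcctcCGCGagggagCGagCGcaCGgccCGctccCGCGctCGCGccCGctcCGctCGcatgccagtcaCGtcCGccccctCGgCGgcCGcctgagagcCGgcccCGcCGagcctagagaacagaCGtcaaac
The *Dnmt3l* window held 6 CpG, below the median window, and the other *Dnmt3l* starts held 4 and 3. The *Tet1* window held 17 and the *Tet2* window 57, the latter at the 99.9th percentile of all windows. The remaining members had at least 1 start above the upper quartile of windows, with 33 CpG at *Dnmt1* start 3 and at *Uhrf1* start 2, 47 at *Dnmt3a* start 2, 30 at *Dnmt3b*, 22 at *Tet3* and 26 at *Tdg*. *Dnmt3l* was thus the member with the lowest CpG count at every start except the first of *Dnmt1*, which held 2.

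The maintenance pair *Dnmt1* and *Uhrf1* shared a further feature. E2F motifs, bound by the transcription factors that drive genes of the S phase, were searched on both strands as TTTCCCGC, TTTCGCGC, TTTGCCGC and TTTGGCGC. At least 1 of them was in 2.26% of all windows. Each motif holds a CpG, and the share among windows as rich in CpG as those of these genes was not worked out. Among the members, only *Dnmt1* start 3 (chr9:20952574-20952873, − strand) held 2 matches, which do not overlap, and *Uhrf1* start 2 (chr17:56304063-56304362, + strand) held 1. They are in capitals below.
Dnmt1: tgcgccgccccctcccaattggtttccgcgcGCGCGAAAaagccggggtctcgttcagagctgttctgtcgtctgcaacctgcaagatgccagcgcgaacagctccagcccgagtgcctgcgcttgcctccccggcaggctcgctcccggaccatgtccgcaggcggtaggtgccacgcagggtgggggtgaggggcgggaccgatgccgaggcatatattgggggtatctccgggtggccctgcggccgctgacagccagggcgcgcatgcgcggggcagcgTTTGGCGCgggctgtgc
Uhrf1: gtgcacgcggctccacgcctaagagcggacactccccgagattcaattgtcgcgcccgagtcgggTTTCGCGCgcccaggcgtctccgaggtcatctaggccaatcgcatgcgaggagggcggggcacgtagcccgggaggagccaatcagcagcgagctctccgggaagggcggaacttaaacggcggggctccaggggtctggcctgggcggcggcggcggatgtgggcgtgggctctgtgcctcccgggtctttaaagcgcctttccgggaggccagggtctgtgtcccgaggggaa
These matches are letters in a window and no measured binding.

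Among the 9 members, 6 were higher and 1 was lower in IG27, and 2 did not pass the test. With quantile normalization, or with the percentile taken over detected probes only, 6 were higher and 0 lower. The 7 called members compare with 70.5% of all genes called in either direction, a share near that of the members. The 6 higher members stand against a background of 30.5% of genes called higher, and the 1 lower member against 40.0% called lower. The WT and IG27 values did not overlap in 7 of 9 members, compared with 75.7% of all genes. The median difference of the members was 0.29, against -0.07 for all genes. *Dnmt3l* and *Tet1* were the 2 members higher by at least 1 on the log2 scale, which 11.4% of all genes were. In these bulk samples, more RNA per cell and more cells that express a gene cannot be told apart. All values below are log2 processed intensities relative to the 75th percentile of the same array, taken from the brightest probe of each gene, and levels of different probes are not compared with each other. Adjusted *P* values come from limma with Benjamini-Hochberg adjustment over the 14894 genes.

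**Figure D1:**
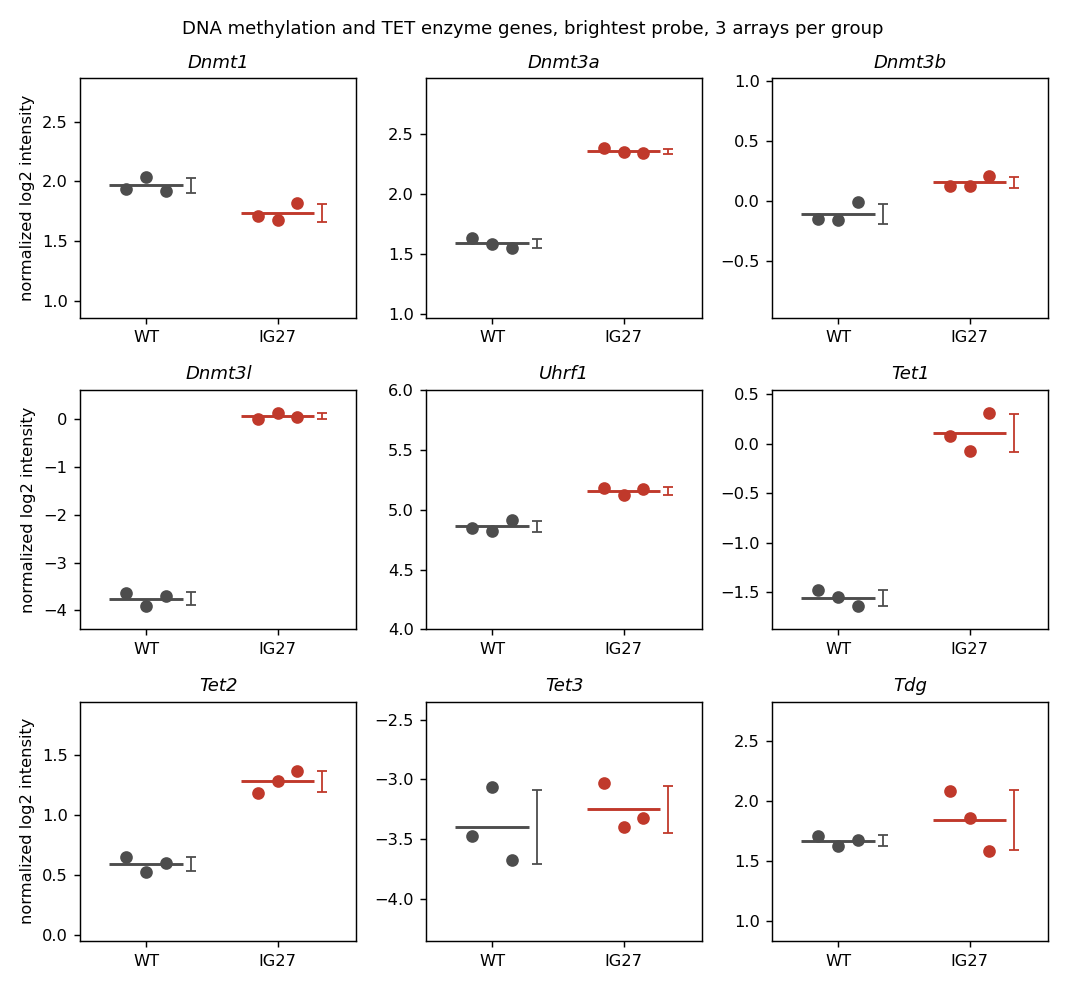
Normalized log2 intensity (y axis, relative to the 75th percentile of each array) of the brightest probe of each of the 9 members in 3 WT and 3 IG27 dishes (x axis). Points are single arrays, lines with bars are the mean ± SD, and the scale of the y axis differs between panels; the groups are separate in 7 panels and overlap for *Tet3* and *Tdg*.

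Among the de novo enzymes, *Dnmt3l* differed most. It measured -3.64, -3.91 and -3.70 in WT replicates 1 to 3 and 0.00, 0.12 and 0.05 in IG27 replicates 1 to 3. Every IG27 dish was above every WT dish by more than the whole spread within either group. The difference was 3.80 ± 0.08 (SE, n = 3 per group; 95% CI, 3.60 to 4.01), a 14.0-fold higher signal (95% CI, 12.1 to 16.1) with an adjusted *P* of 3.11e-07 by limma. Of all genes tested, 415 had a difference at least as high. The gene has a single probe, which was well above background on the complete arrays of both groups, so the WT value is a measured low level and no bound.

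*Dnmt3a*, one of the catalytic de novo methyltransferases, was 1.63, 1.58 and 1.55 in WT and 2.38, 2.35 and 2.34 in IG27. The groups were separate, and the difference of 0.77 ± 0.05 (95% CI, 0.65 to 0.89) corresponded to a 1.70-fold higher signal (adjusted *P* = 1.96e-05, limma). Its second, dimmer probe gave -2.54, -2.66 and -2.66 in WT and -2.45, -2.46 and -2.55 in IG27. These values overlapped, with a difference of 0.13 (95% CI, -0.02 to 0.28; adjusted *P* = 0.104, limma over all probes). The rise of *Dnmt3a* therefore rests on 1 of 2 probes, and the mean of both gave 0.45 (adjusted *P* = 3.4e-04 by limma).

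*Dnmt3b*, the other catalytic de novo enzyme, was -0.15, -0.16 and -0.01 in WT and 0.13, 0.13 and 0.21 in IG27. All IG27 dishes were above all WT dishes, by a smaller margin than for *Dnmt3a*. The difference was 0.26 ± 0.06 (95% CI, 0.12 to 0.41), or 1.20-fold, with an adjusted *P* of 0.00726 by limma. A second probe differed by 0.39 (adjusted *P* = 0.00389, limma over all probes). The remaining probe was well above background on 2 WT arrays and on no complete IG27 array and was not tested.

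The maintenance pair moved in opposite directions, both by little. *Dnmt1* was 1.94, 2.04 and 1.92 in WT and 1.71, 1.68 and 1.82 in IG27. Each IG27 dish was below each WT dish, and the difference was -0.22 ± 0.06 (95% CI, -0.37 to -0.07), a 1.17-fold lower signal (adjusted *P* = 0.017, limma). This call is the least firm of the 7. With quantile normalization the difference was -0.11 (adjusted *P* = 0.163 by limma), with the percentile taken over detected probes only it was -0.09 (adjusted *P* = 0.231 by limma), and without WT replicate 2, IG27 replicate 1 or IG27 replicate 2 the adjusted *P* by limma was 0.0511, 0.0516 or 0.059.

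*Uhrf1*, which binds newly replicated CpG and recruits Dnmt1, was 4.85, 4.82 and 4.91 in WT and 5.18, 5.12 and 5.17 in IG27. The groups did not overlap. The difference was 0.29 ± 0.05 (95% CI, 0.17 to 0.41), or 1.23-fold (adjusted *P* = 0.0019, limma), and its second probe gave 0.35 (adjusted *P* = 0.0169, limma over all probes).

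Of the TET enzymes, *Tet1* and *Tet2* rose and *Tet3* gave different answers by probe. *Tet1* was -1.48, -1.55 and -1.64 in WT and 0.08, -0.07 and 0.31 in IG27, so that the lowest IG27 dish was far above the highest WT dish. The difference was 1.66 ± 0.11 (95% CI, 1.40 to 1.92), a 3.17-fold higher signal (95% CI, 2.65 to 3.79; adjusted *P* = 2.33e-05, limma). The second *Tet1* probe was also higher, by 0.69 (95% CI, 0.43 to 0.94; adjusted *P* = 0.00131, limma over all probes). Both probes agree in direction and differ in size, and their intervals do not overlap.

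*Tet2* was 0.65, 0.53 and 0.60 in WT and 1.19, 1.29 and 1.37 in IG27. The groups were separate, with a difference of 0.69 ± 0.07 (95% CI, 0.53 to 0.85), or 1.61-fold (adjusted *P* = 0.000146, limma). The second *Tet2* probe gave 0.87 (adjusted *P* = 7.6e-05, limma over all probes), so that for this gene both probes passed the test with overlapping intervals (0.53 to 0.85 and 0.70 to 1.04).

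*Tet3* was -3.47, -3.06 and -3.67 in WT and -3.03, -3.40 and -3.32 in IG27 by its brightest probe. The groups overlapped, and the difference of 0.15 ± 0.18 had a 95% CI of -0.29 to 0.58 (adjusted *P* = 0.483, limma). The second probe was -4.34, -4.17 and -4.05 in WT and -2.61, -3.28 and -3.30 in IG27. By this probe every IG27 dish was above every WT dish, with a difference of 1.12 (95% CI, 0.63 to 1.62) or 2.18-fold (adjusted *P* = 0.00278, limma over all probes). Replicate 1 was the highest of the IG27 dishes on both probes.

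*Tdg*, the glycosylase that removes oxidized methylcytosine, was 1.71, 1.62 and 1.67 in WT and 2.08, 1.86 and 1.58 in IG27. IG27 replicate 3 was below all WT dishes while the other two were above them, and the difference of 0.17 ± 0.13 (95% CI, -0.14 to 0.48) did not pass the test (adjusted *P* = 0.268, limma). Without IG27 replicate 3 it was 0.30 (adjusted *P* = 0.0295 by limma). The second *Tdg* probe was -2.30, -2.29 and -2.28 in WT and -1.76, -1.73 and -1.91 in IG27. It was higher in every IG27 dish, by 0.48 (95% CI, 0.33 to 0.64; adjusted *P* = 0.000598, limma over all probes).

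Over the 16 tested probes of the 9 members, 12 were higher and 1 was lower in IG27, and 3 did not pass the test. The share called among all tested probes was not worked out, so this count has no background beside it. Probes of the same gene are also no independent measurements. No member had 1 tested probe higher and another lower. Of the 7 members with more than 1 tested probe, *Dnmt3b*, *Uhrf1*, *Tet1* and *Tet2* were called higher by each of them. The probes' positions along the transcripts are not used here, so whether probes that disagree read different isoforms was not tested.

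**Figure D2:**
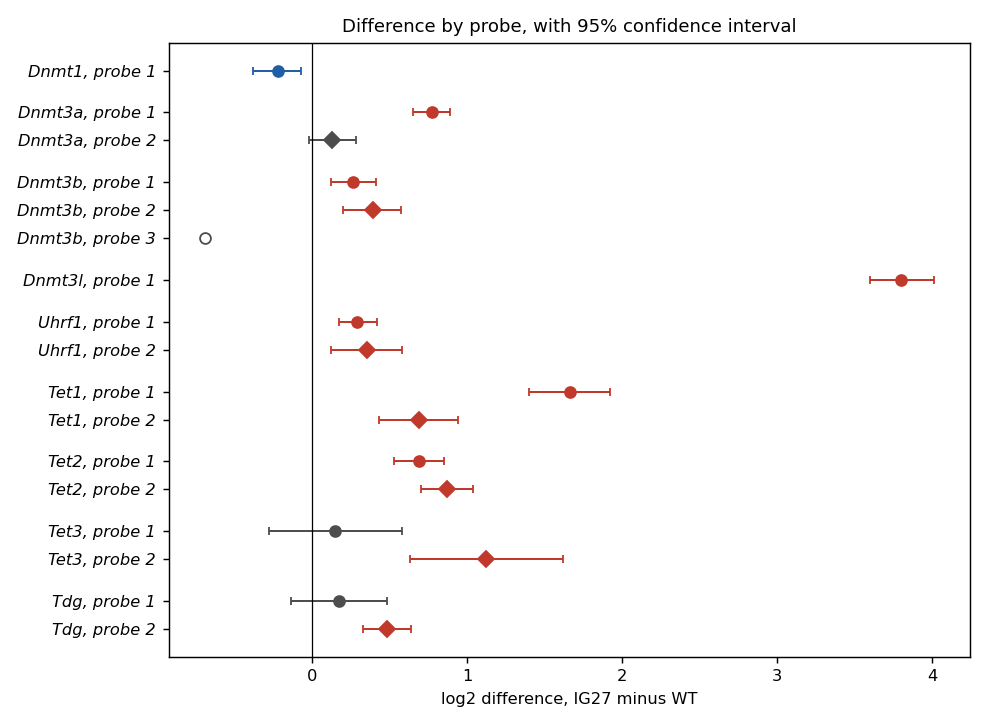
Log2 difference between IG27 and WT (axis in log2 units) for each probe of the 9 members, with the 95% CI of the fit over all probes. Circles are the brightest probes used for the genes, diamonds the others and open symbols untested probes; red marks probes called higher, blue called lower and grey not called, and *Tet3* and *Tdg* each have a called and an uncalled probe.

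**Figure D3:**
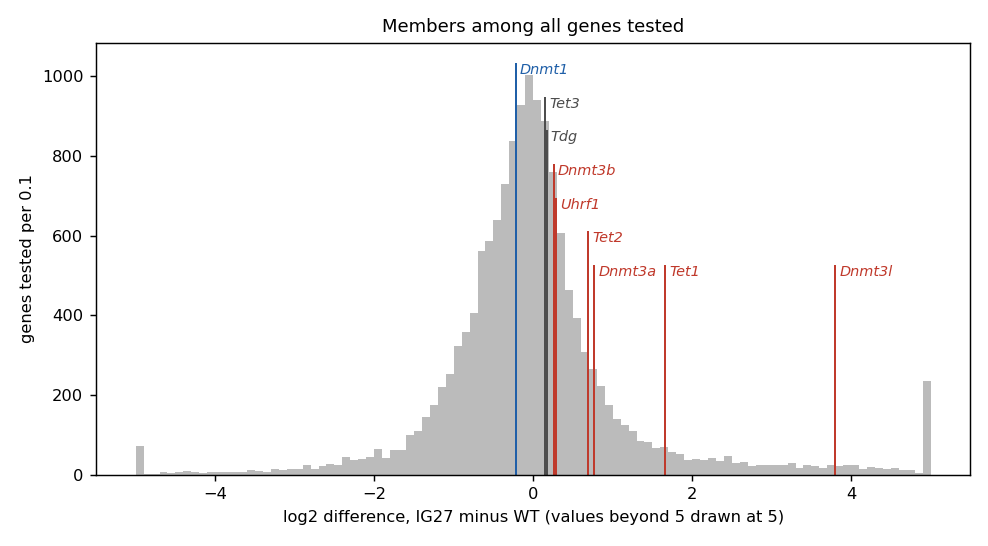
Distribution of the log2 difference, IG27 minus WT (x axis), over the 14894 genes tested (y axis, genes per bin of 0.1; genes beyond 5 in either direction are drawn at 5), with a line for each member. *Dnmt3l* at 3.80 and *Tet1* at 1.66 lie in the right tail, and *Dnmt1* at -0.22 lies left of the other members.

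The arrays lie in 2 rows of 1 slide, and row 2 holds WT replicate 2 with all IG27 arrays. With the row as a block, which here equals the comparison of IG27 with WT replicate 2 within row 2, the differences were 3.96 for *Dnmt3l*, 1.66 for *Tet1*, 0.78 for *Dnmt3a*, 0.76 for *Tet2*, 0.33 for *Uhrf1*, 0.31 for *Dnmt3b* and -0.30 for *Dnmt1*. All of these 7 kept an adjusted *P* under 0.05. *Tet3* turned to -0.20 (adjusted *P* = 0.367, limma), and *Tdg* was 0.22 (adjusted *P* = 0.378, limma).

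The genes next to the members were read in the same fit, a comparison chosen after the members' values were seen. Around *Dnmt3l* on chromosome 10, 4 of the 6 nearest tested genes (3 on each side) were higher in IG27 and none was lower. Among them were *Aire*, the autoimmune regulator (2.72 ± 0.66, adjusted *P* = 0.0105), *Icosl*, a costimulatory ligand (1.62, adjusted *P* = 0.000153), and *Pfkl*, a phosphofructokinase (1.25), by limma. Around *Tet1*, also on chromosome 10, 5 of 6 neighbours were higher and none lower, among them the RNA helicases *Ddx21* (1.0) and *Ddx50* (1.02) and *Rufy2* (1.13). Around *Tdg*, the remaining member on chromosome 10, 0 of 6 neighbours were higher and 4 were lower, with a median of -0.33. Around *Dnmt1* on chromosome 9, none of 6 was higher and 5 were lower, down to -1.47 for *Icam4*, so that *Dnmt1* with -0.22 lay above most of its neighbours, whose median was -0.70. The 813 tested genes of chromosome 9 had a median of -0.64 with 71.1% called lower, and the 682 of chromosome 10 a median of 0.08 with 41.2% called higher. Around *Uhrf1* on chromosome 17, 4 of 6 neighbours were higher and none lower, with a median of 0.42, above the 0.29 of *Uhrf1*, and the chromosome's 764 tested genes had a median of 0.16 with 44.5% called higher. For *Tet2* and *Dnmt3b* the members ran against their surroundings, with chromosome medians of -0.31 (chromosome 3, 738 genes) and -0.34 (chromosome 2, 1149 genes). DNA copy number was not measured, and its part in these values was not tested.

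The genes listed as readers of methylated CpG, with *Mbd3* (-0.43) counted by its family, were mostly lower in IG27. Of these 9 genes, all tested, 7 were lower, 1 was higher and 1 did not pass the test, with a median of -0.47. Over all genes tested, 40.0% were called lower and 30.5% higher, with a median of -0.07. Among the lower genes were *Zbtb38*, a zinc finger protein that binds methylated CpG (-1.82 ± 0.08, adjusted *P* = 5.64e-06), and *Mbd2*, a subunit of the NuRD repressor complex (-0.91 ± 0.12, adjusted *P* = 0.000623), both by limma. *Uhrf2*, the paralog of *Uhrf1*, went the other way with 2.25 ± 0.05, or 4.75-fold higher (adjusted *P* = 4.3e-07, limma), and its 3 probes gave 2.25, 3.00 and 2.68. *Uhrf1* itself rose by 0.29. *Mbd1* did not pass the test by its brightest probe (-0.13, adjusted *P* = 0.0934, limma), while another of its probes differed by 1.49.

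Partners that assist maintenance or guide methylation rose more often than they fell. Of 9 such genes 8 were tested, 5 were higher, 1 was lower and 2 were not called, with a median of 0.27. The shares over all genes were 30.5% higher and 40.0% lower. *Zfp57*, a zinc finger protein that protects methylation at imprinted loci, was higher by 2.51 ± 0.47 (adjusted *P* = 0.00333, limma), *Cdca7l* by 0.59 and *Usp7*, the deubiquitinase of Uhrf1 and Dnmt1, by 0.28. The WT level of *Zfp57* was near background and varied (mean -4.65, SD 0.97), with lowest detected signals of -6.01 to -5.53 on the WT arrays. Its difference ranged from 1.6 to 2.95 over the alternatives. *Pcna*, the replication clamp to which Dnmt1 binds, fell by 0.43 ± 0.05 (adjusted *P* = 0.000241, limma).

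Genes for partners of the TET enzymes or for the supply of their cofactor were divided. Of 7 genes 5 were tested, of which 2 were higher and 3 lower, with a median of -0.33. Without IG27 replicate 1 the median was -0.04 over 6 tested genes, and with the mean of probes it was -0.11 with 2 higher and 1 lower. *Idh2* and *Idh1*, isocitrate dehydrogenases that make α-ketoglutarate, were higher by 0.79 ± 0.07 (adjusted *P* = 7.73e-05, limma) and 0.25 ± 0.07 (adjusted *P* = 0.0186, limma), and the call of *Idh1* was lost with normexp, with the slide row as a block and without WT replicate 1, IG27 replicate 1 or IG27 replicate 3. *Cxxc5*, which binds unmethylated CpG and interacts with Tet2, fell by 1.46 ± 0.06 (adjusted *P* = 3.37e-06, limma), while *Ogt*, the O-GlcNAc transferase that binds TET proteins, differed by probe. Its brightest probe gave -0.38 (adjusted *P* = 0.00129, limma) and its second probe 0.17 (adjusted *P* = 0.0478, limma over all probes), and the mean of both (-0.11) did not pass the test.

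In a list of base excision repair, which completes demethylation after Tdg, and of the *Gadd45* genes, 9 of 14 genes were not called. *Lig3*, a DNA ligase, was higher (0.41), and 4 genes were lower, with *Gadd45b* (-0.90), a stress protein linked to active demethylation, *Polb* (-0.74), the repair polymerase, and *Neil1* (-0.52), a glycosylase, falling most. The median of the list was -0.07, that of all genes, and with other scalings 3 genes were called higher and 4 lower. In methyl donor supply, 3 of 8 genes were higher and 2 lower. *Mat2b*, the regulatory subunit of the enzyme that makes S-adenosylmethionine, was higher by 0.32 ± 0.09 (adjusted *P* = 0.0171, limma), a call lost without WT replicate 2 or 3 or IG27 replicate 1 or 3. *Bhmt* was at least 2.88-fold higher, since it was not well above background in WT. *Mat2a*, the catalytic subunit, and *Ahcy*, which clears the product of methyl transfer, were lower (-0.29 and -0.31), and neither decrease was called with the percentile over detected probes.

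**Figure D4:**
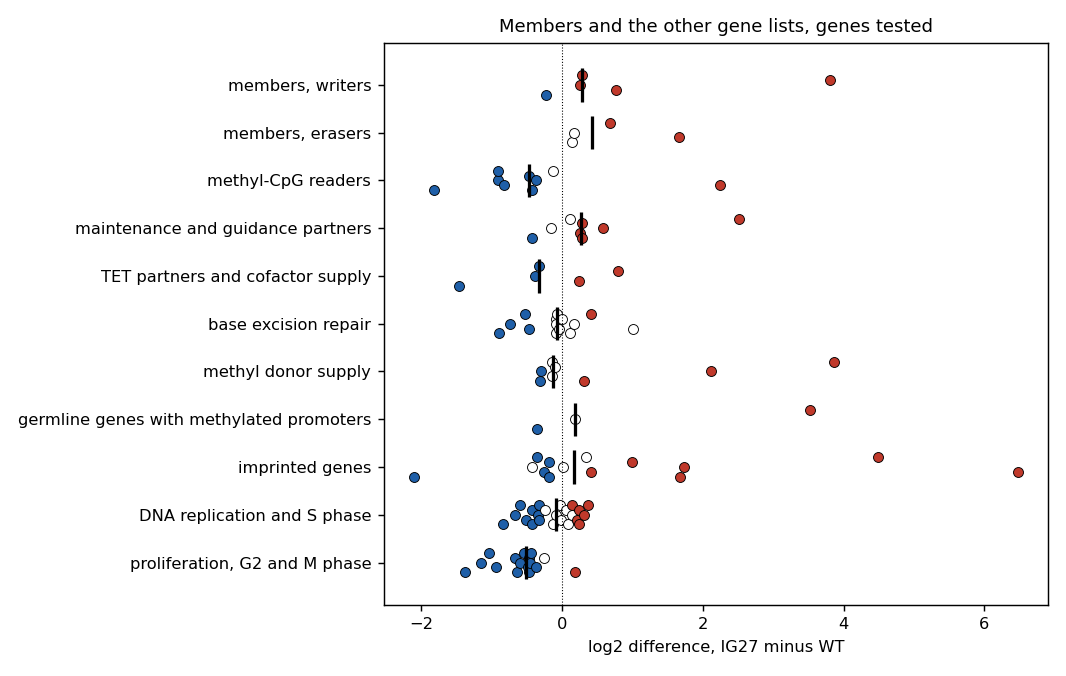
Log2 difference, IG27 minus WT, of each tested gene in the members and in the lists of related genes; each point is a gene and each short line a list's median. The genes listed as readers of methylated CpG and the G2 and M phase genes lie mostly below 0, with medians of -0.47 and -0.51.

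Genes known to be held silent by DNA methylation were mostly below detection. Of 20 germline genes with methylated promoters, 17 were not well above background in either group and were not tested. Of the 3 that were tested, *Tex19.1* was at least 2.40-fold higher in IG27 against a WT signal at background, *Brdt* was lower (-0.36 ± 0.08, adjusted *P* = 0.0083, limma; not with the mean of its probes or the slide row) and 1 was not called. Of 24 imprinted genes 14 were tested, with 6 higher, 5 lower and 3 not called, and the median was 0.18. That median has no stable size or sign, at 0.06 without WT replicate 1, 0.11 without IG27 replicate 3, 0.43 without IG27 replicate 1, 0 with quantile normalization and -0.01 with the slide row as a block. *Mest* was at least 19.3-fold and *H19* at least 11.8-fold higher, both not well above background in WT, and *Snrpn* was at least 1.23-fold lower with IG27 at background. Among those measured in both groups, *Dlk1* (1.74), *Slc22a18* (1.68) and *Igf2r* (1.0) were higher, and *Plagl1* (-0.35), *Peg10* (-0.26) and *Impact* (-0.19) were lower, with overlapping groups for *Peg10*. The call of *Peg10* was lost in 12 of 18 alternatives and that of *Impact* in 4. For *Plagl1*, the mean over its probes was higher in IG27 (1.75), since a second probe rose from below background. With other scalings, 2 or 3 imprinted genes were called lower in place of 5.

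Since *Dnmt1* and *Uhrf1* are expressed with DNA replication, proliferation genes were set beside them. Of 23 genes of DNA replication and the S phase, 6 were higher, 9 lower and 8 not called, with a median of -0.08 (-0.11 to -0.04 when single arrays were left out). The increases were led by *Rfc4* (0.37), *Tk1* (0.31) and *Tyms* (0.25), and the decreases by *Gins2* (-0.84), *Rrm2* (-0.66) and *Mcm5* (-0.60). With the percentile over detected probes this balance turned, with 8 higher and 7 lower. Of 16 genes of the G2 and M phases, 14 were lower, with *Ccna2* (-1.38), *Ccnb2* (-1.15) and *Bub1b* (-1.04) falling most, *Cdc20* (0.19) was higher and 1 was not called, and the median was -0.51. For both lists, the shares over all genes were 30.5% higher and 40.0% lower. The part of the cell cycle in the values of *Dnmt1* and *Uhrf1* was not tested.

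**Figure D5:**
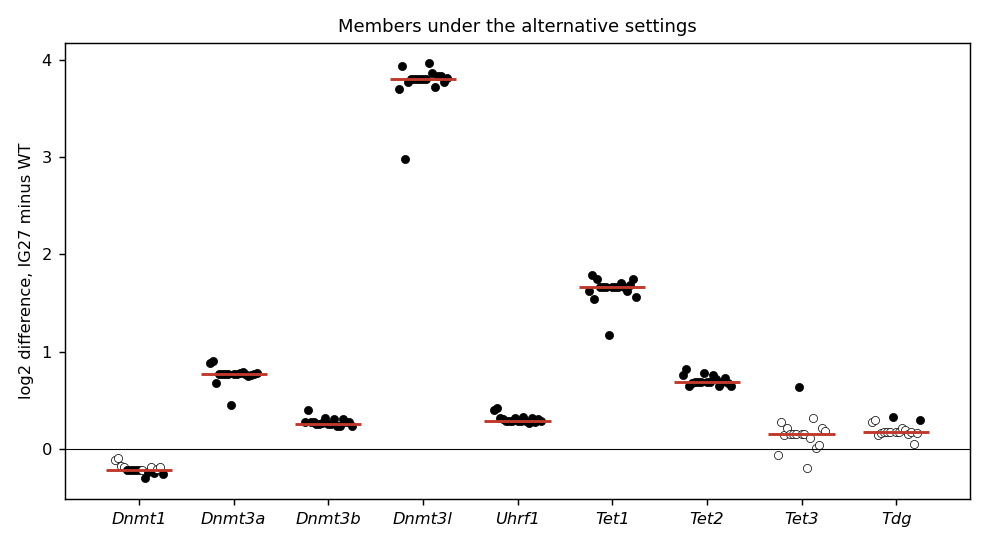
Log2 difference, IG27 minus WT (y axis), of each member (x axis) under the alternative settings. The unadjusted *P* of at most 0.05 is not drawn, since it repeats the reported values. Complete arrays only and leaving out IG27 replicate 2 are the same fit. Filled points passed and open points did not pass the adjusted *P* of 0.05, and the red line is the value as reported. *Dnmt3l*, *Tet1*, *Dnmt3a*, *Tet2*, *Uhrf1* and *Dnmt3b* stay above 0 and filled throughout, *Dnmt1* ranges from -0.30 to -0.09, and *Tet3* crosses 0.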

How the data were processed

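Total RNA from OS3 cells was labelled with Cy3 and hybridized to Agilent SurePrint G3 mouse arrays. The authors extracted spot intensity values with Agilent Feature Extraction, named as version 9.1 in the labels and 10.7.3.1 in the file headers. Their deposited value table holds the same processed intensities, linear and not normalized between arrays, and supplied IG27 replicate 2, whose scanner file is incomplete. That table exchanges WT replicates 2 and 3 relative to the scanner files, whose labels were used. The processed signal of 56605 non-control probes was log2 transformed and reduced by each array's 75th percentile, outlier spots were dropped, and spots of a probe were averaged. Probes were named through RefSeq accessions, 32989 in all. A gene was tested by its brightest probe among those that all complete arrays of 1 or both groups showed well above background, with limma 3.58.1 in R 4.3.3 (two-sided, Benjamini-Hochberg, threshold 0.05), checked on simulated data. The precision is limited by 3 arrays per group. Probe sequences were not used here. Members and gene lists were chosen with earlier results of these data known. Named genes are all members and, per list, up to 3 called genes with the largest rise and fall that were above background in both groups, and others where a statement needed them, chosen after their values were seen; some genes this rule names are not reported here. A gene not above background in 1 group is given as a bound, from the lowest signal well above background on each array. Alternatives changed the scaling, background correction, filters, probe summary, blocks and arrays used.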

Additional observations from a re-analysis of the deposited data

How the results depend on the processing

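Of the members, *Dnmt3a* (0.45 to 0.90), *Dnmt3b* (0.24 to 0.40), *Dnmt3l* (2.98 to 3.96), *Uhrf1* (0.27 to 0.42), *Tet1* (1.17 to 1.79) and *Tet2* (0.65 to 0.82) were called higher under all 18 alternatives, of which complete arrays only and leaving out IG27 replicate 2 are the same fit. The alternative of an unadjusted *P* of at most 0.05 keeps the reported fit and only loosens the threshold. *Dnmt1* lost its call, leaving 0 members called lower, with quantile normalization (-0.11), the percentile over detected probes (-0.09), normexp (-0.18), complete arrays only (-0.19) and the replicate block (-0.22, adjusted *P* = 0.0513 by limma); over the leave-one-out fits it ranged from -0.26 to -0.19 and the members called lower from 0 to 1. *Tet3* reversed with quantile normalization (-0.06) and the slide row (-0.20) and was called with the mean of probes (0.64); without WT replicate 3 it was 0.01 and without WT replicate 2 it was 0.32. With the mean of probes *Tdg* was also called (0.33). It ranged from 0.05 to 0.30 over the leave-one-out fits. Called TET partners fell to 3 with the mean of probes, methyl donor genes to 3 with the detected-probe percentile or the slide row, and germline genes to 1 with detection required in both groups, the mean of probes or the slide row. The causes were not tested beyond the settings' own construction. The detected-probe percentile moved the median of all genes from -0.07 to 0.06, and the share of called genes that were higher from 43.3 to 53.1%. Same-numbered dishes did not deviate together (r = 0.01, 0.04 and 0.08), so no pairing by number was seen. These values cannot exclude a pairing, since each group has 3 dishes and the numbers of WT replicates 2 and 3 differ between the value table and the scanner files. The replicate block changed the count of called genes from 10498 to 10306 and, besides *Dnmt1*, no member's call. Normexp could be run only on median signals of the 5 complete arrays.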
